A study of Arabidopsis thaliana with 12 samples.

Results

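The genes described here gained the histone variant H2A.Z by at least 1.5-fold in *ref4-3* rosettes. H2A.Z was mapped in *Arabidopsis thaliana* (Columbia) by chromatin immunoprecipitation and sequencing, from complete rosettes harvested at 21 days. Wild-type plants were compared with *ref4-3*, a semidominant point mutant of MED5b, which is a subunit of the tail module of Mediator. Trimethylation of lysine 27 of histone H3 (H3K27me3) was profiled in the same genotypes, with 2 replicates per genotype and mark, and the 4 input samples of the series were not analysed here. Each replicate was a pool of shoot tissue, so fewer cells carrying a mark and less of the mark per cell cannot be told apart. The mutation is a base change, so read counts cannot check the genotype labels, and no transcripts were measured in these libraries.

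Members were chosen by their H2A.Z values. A region, the part of a gene that lies in an H2A.Z-enriched island of either genotype, was taken when its mean count over the 4 libraries was at least 100, both *ref4-3* libraries were above both wild-type libraries in CPM (fragments of a region per 1000000 fragments counted in that library), and the *ref4-3* mean was at least 1.5 times the wild-type mean. This gave 76 regions in 74 genes, out of 24960 regions in 22249 genes. Of the 24228 regions with enough counts, 6282 (25.9%) had both *ref4-3* libraries above both wild-type libraries, so the ratio was the part of the rule that left few regions. The same rule turned to losses gave 38 regions in 37 genes. Since the members were selected on this contrast, their H2A.Z differences are given as a description, with no test.

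H2A.Z replaces the core histone H2A in some nucleosomes and is placed there by the SWR1 remodelling complex. In Arabidopsis it is typically found in the nucleosomes after the transcription start of many genes, and it spreads over the gene body of genes that respond to environment or stress. H3K27me3 is laid down by Polycomb complexes and marks repressed genes. Mediator connects transcription factors with RNA polymerase II, and its tail module is the part that many of these factors contact.

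The H2A.Z libraries held from 7848342 to 10128759 fragments in regions and the H3K27me3 libraries from 5805781 to 8466471. The median H2A.Z region had between 233 and 299 fragments per library. The counts were not corrected for input, and they were scaled on the regions themselves, so a change shared by nearly every region cannot be seen in them. Whether the libraries of the 2 marks came from the same chromatin preparation is not stated.

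The gain was largest at PLPB, which encodes a protein with a light-sensing LOV domain. Its region (chr2:760001-760800, minus strand) had 11.2 and 9.97 CPM in wild-type plants against 24.4 and 27.01 CPM in *ref4-3*, a ratio of 2.42. The region starts 264 bp after the gene start, covers 33.7% of the gene and is mostly coding sequence. PCO1 (AT5G15120) followed. It encodes a plant cysteine oxidase, an enzyme that uses oxygen to oxidise the amino-terminal cysteine of group VII ethylene response factors and so marks them for degradation. PCO1 gained H2A.Z in separate regions at its start and in its body. The first (chr5:4898641-4899400) had 14.2 and 11.3 CPM in wild type and 27.98 and 30.96 CPM in *ref4-3*, a ratio of 2.31. The second (chr5:4899801-4900400) had 11.5 and 12.2 CPM against 20.6 and 22.2 CPM, a ratio of 1.81. PLPB and the start of PCO1 were the only regions with a ratio of 2 or more.

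ETR2, an ethylene receptor, had one of the 2 longest member regions, 1800 bp over 54.1% of the gene. Its H2A.Z level was 26.2 and 24.8 CPM in wild type and 43.2 and 55.3 CPM in *ref4-3*, a ratio of 1.93. AT1G02816, which encodes a protein of a domain family of unknown function, had the same ratio of 1.93 from a lower level, with 11.4 and 10.1 CPM against 21.8 and 19.6 CPM. The remaining regions of the 10 with the largest ratios were those of AT2G04690, a member of the pyridoxamine phosphate oxidase family (1.88), the non-coding RNA genes AT2G14878 (1.88) and AT1G07013 (1.81), TPS6 (1.78), a trehalose-phosphate synthase-like protein, and ACBP3 (1.77), which binds acyl-CoA esters.

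The gains were graded, with no break at the threshold. Ratios ran from 1.50 to 2.42 with a median of 1.56 and 48 of the 76 regions were under 1.6. The members just inside were AT5G49440 (1.502), AT5G20700 (1.505) and TGA4 (1.506), and the regions just outside were ETP1, ATCTH and AT4G15080 (each 1.499). For 25 members the lowest *ref4-3* value was at least 1.5 times the highest wild-type value. The smallest such gap over all members was 1.19 and the median was 1.44. The rule places both *ref4-3* libraries above wild type, so their agreement is in part built in and is only described. The median log2 ratio to the wild-type mean was 0.66 in each *ref4-3* library, and replicate 1 was the higher one in 41 regions.

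**Figure D1:**
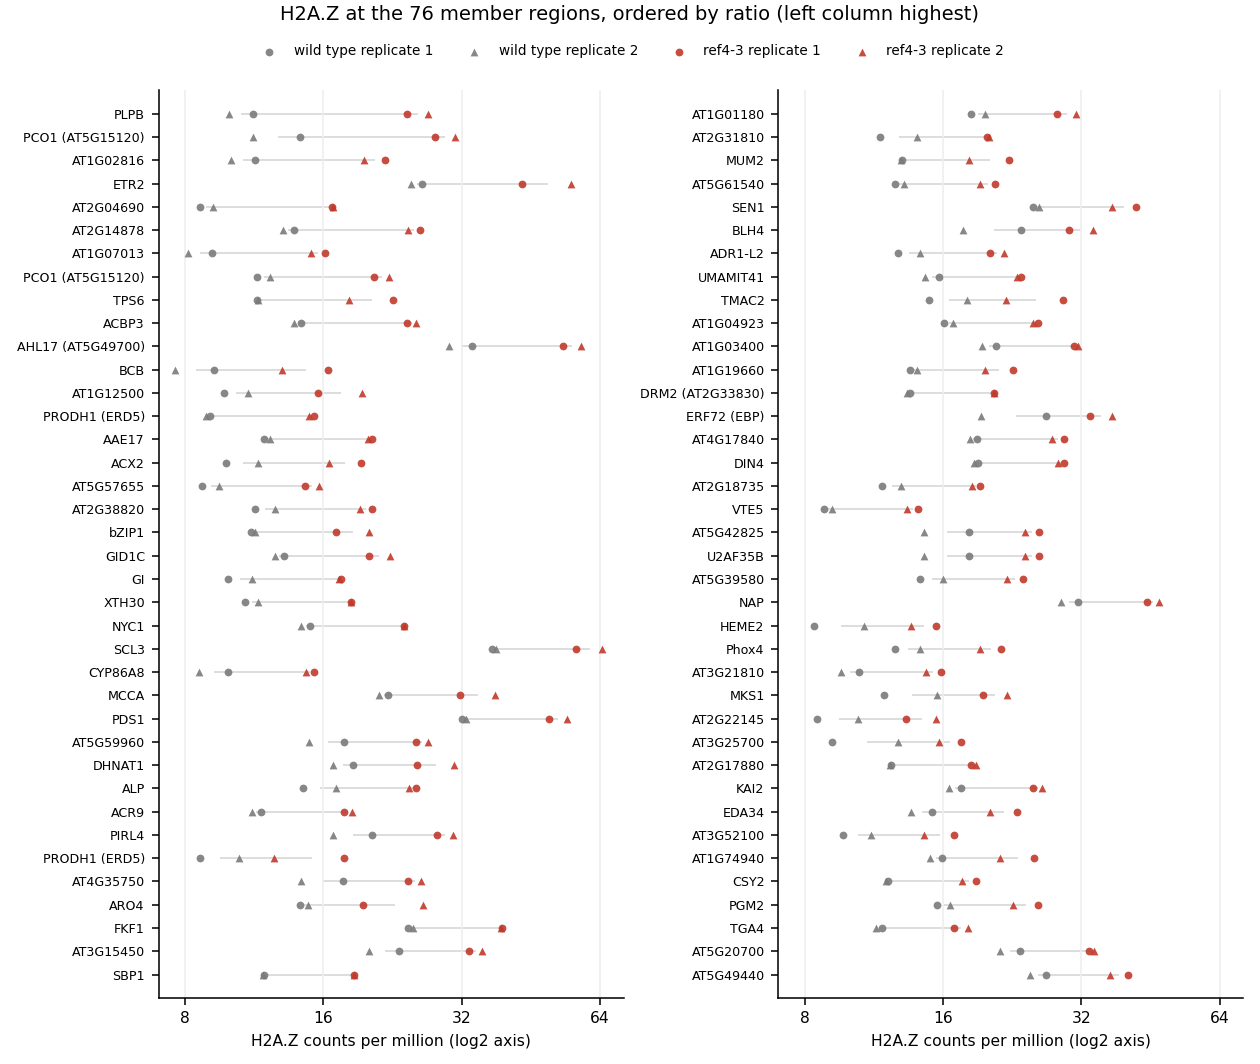
H2A.Z level of the 76 member regions in each library, in CPM on a log2 axis, with grey points for wild type, red points for *ref4-3*, a circle for replicate 1 and a triangle for replicate 2. Grey lines join the genotype means, and regions are ordered by their ratio from 2.42 (PLPB, top left) to 1.50 (AT5G49440, bottom right). The points of the genotypes do not overlap in any row, as the rule requires.

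The upstream sequences of 4 members are printed as examples of the groups described next, picked after their motif matches were seen: PLPB and FKF1 for light and the clock, PCO1 for oxygen sensing and ERD5, here called PRODH1 because RefSeq lists proline dehydrogenase 1 among its synonyms, for starvation metabolism. Each is the 300 bases before the gene start in RefSeq's TAIR10.1 annotation, on the strand of the gene, and capitals mark matches to the motifs searched. The windows are chr2:761065-761364 (minus strand) for PLPB, chr5:4898341-4898640 (plus strand) for PCO1, chr1:25508339-25508638 (plus strand) for FKF1 and chr3:12451557-12451856 (minus strand) for PRODH1.
PLPB: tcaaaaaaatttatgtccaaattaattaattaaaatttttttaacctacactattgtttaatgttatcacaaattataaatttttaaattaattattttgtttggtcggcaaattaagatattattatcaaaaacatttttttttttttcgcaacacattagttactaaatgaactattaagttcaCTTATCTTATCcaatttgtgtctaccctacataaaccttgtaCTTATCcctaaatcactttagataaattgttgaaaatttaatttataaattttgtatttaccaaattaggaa
PCO1: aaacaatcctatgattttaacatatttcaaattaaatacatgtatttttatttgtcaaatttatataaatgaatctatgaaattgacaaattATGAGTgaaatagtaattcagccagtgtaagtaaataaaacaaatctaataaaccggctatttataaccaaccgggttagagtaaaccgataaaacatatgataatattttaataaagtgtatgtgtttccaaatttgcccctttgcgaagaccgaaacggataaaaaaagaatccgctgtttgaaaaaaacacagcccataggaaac
FKF1: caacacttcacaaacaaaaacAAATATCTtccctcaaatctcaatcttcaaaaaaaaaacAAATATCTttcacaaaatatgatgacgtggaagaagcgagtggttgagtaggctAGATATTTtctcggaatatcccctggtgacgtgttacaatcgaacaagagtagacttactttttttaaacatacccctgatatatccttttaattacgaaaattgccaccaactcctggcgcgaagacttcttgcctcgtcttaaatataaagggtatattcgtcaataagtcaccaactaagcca
PRODH1: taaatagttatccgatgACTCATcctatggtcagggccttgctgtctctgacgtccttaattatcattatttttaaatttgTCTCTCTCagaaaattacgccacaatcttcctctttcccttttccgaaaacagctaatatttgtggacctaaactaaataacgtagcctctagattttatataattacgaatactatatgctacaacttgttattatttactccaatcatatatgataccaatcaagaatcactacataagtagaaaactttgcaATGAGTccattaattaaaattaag

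The capitals in PLPB are 3 matches to the I-box (GATAAG, here read on the opposite strand as CTTATC), at positions −114, −109 and −72 from the gene start, of which the first 2 share a base. FKF1 had 3 evening elements (AAATATCT), the motif bound by morning factors of the clock, at −279, −240 and −186. PRODH1 had the motif ACTCAT, through which bZIP factors of the S1 group act on this gene, at −283 and −24, and a GAGA repeat (GAGAGAGA) at −219, whereas PCO1 had a single ACTCAT at −208. No motif was common to most members. Searched on both strands, the I-box was found upstream of 18 of the 74 members (24.3%) and 14.6% of the 22248 genes with a window of this length. The evening element was found in 6 members (8.11% against 5.52%), the G-box (CACGTG) in 8 (10.8% against 7.14%) and ACTCAT, which was added after the members were known, in 13 (17.57% against 15.1%). The W-box (TTGACC, 6.76% against 13.6%) and the heat shock element (GAANNTTC, 6.76% against 11.5%) were found in 5 members each. The DRE core (ACCGAC) was found in 4 members (5.41% against 5.23%), the telo-box (AAACCCTA) in 3 (4.05% against 5.25%), the GAGA repeat in 3 (4.05% against 5.56%) and the GCC-box (GCCGCC) in 1 (1.35% against 2.22%). The hypoxia-responsive promoter element was not matched in any member window, against 0.962% of genes. These are shares of letter matches, with no test.

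Beside PLPB, the members known from light signalling and the clock were GI and FKF1. GIGANTEA (GI) is a clock-associated protein that binds FKF1, a blue-light receptor with a LOV domain and an F-box, to control flowering under long days. GI had 9.92 and 11.2 CPM in wild type and 17.5 and 17.3 CPM in *ref4-3* over a 400-bp region that is 6.62% of the gene. FKF1 had 24.5 and 25.1 CPM against 39.2 and 39.0 CPM, a ratio of 1.58. The replicates of *ref4-3* lay close together at both genes. Of the LOV-domain proteins, PLPB and FKF1 were members, and the other 3 with H2A.Z regions were not called.

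EBP, also named ERF72, is one of the group VII ethylene response factors that plant cysteine oxidases act on, and it was a member like PCO1. HRE1 and HRE2, which belong to the same group of factors, were no members and were not called (ratios 0.845 and 1.07). EBP had 26.8 and 19.4 CPM in wild type and 33.4 and 37.3 CPM in *ref4-3*, a ratio of 1.53 with the wild-type libraries further apart than those of *ref4-3*. Other hormone sensors among the members were GID1C, a gibberellin receptor (13.1 and 12.5 CPM against 20.1 and 22.3 CPM), and KAI2, the karrikin receptor (17.5 and 16.5 CPM against 25.2 and 26.2 CPM). Together with TMAC2, a protein of abscisic acid signalling (14.9 and 18.1 CPM against 29.1 and 21.9 CPM), PCO1 and ETR2 they make a group of 5 genes with ratios from 1.51 to 2.31. TMAC2 showed the least separation of these, as *ref4-3* replicate 2 lay not far above wild-type replicate 2.

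The largest named group in the annotation joined sugar, lipid and amino acid breakdown with carbon metabolism, with 15 genes in 16 regions and ratios from 1.51 to 1.78. It is broad and also holds genes that do not encode breakdown enzymes, such as TPS6 and ACBP3. These groups were drawn up after the members were known, so their sizes are counts of annotations and nothing more. PRODH1 performs the first step of proline breakdown in mitochondria and, like PCO1, had a pair of member regions. Its upstream-most one (chr3:12450601-12451000) had 8.60 and 10.5 CPM in wild type and 17.7 and 12.5 CPM in *ref4-3*, and the one further into the gene (chr3:12449401-12449800) had 9.04 and 8.89 CPM against 15.2 and 14.9 CPM. The replicates of *ref4-3* differed more at the former region than at the latter. bZIP1, a factor of the S1 group that acts in the response to low energy, had 11.1 and 11.4 CPM against 17.0 and 20.1 CPM. Of the amino acid genes, DIN4 encodes a subunit of the branched-chain keto acid dehydrogenase (19.1 and 18.7 CPM against 29.3 and 28.4 CPM), and MCCA a subunit of methylcrotonyl-CoA carboxylase of leucine breakdown (22.2 and 21.1 CPM against 31.7 and 37.8 CPM). PDS1 encodes 4-hydroxyphenylpyruvate dioxygenase of tyrosine metabolism and had one of the higher levels, 31.97 and 32.7 CPM against 49.6 and 54.2 CPM. Lipid enzymes were represented by the peroxisomal acyl-CoA oxidase ACX2 (1.67) and the acyl-activating enzyme AAE17 (1.67), and by CSY2, a peroxisomal citrate synthase (1.51). PGM2, a phosphoglucomutase (1.51), the xylose isomerase family gene AT5G57655 (1.66) and the protease ALP (1.59) complete the enzymes of this group.

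SEN1, DRM2 (AT2G33830) and AT3G15450 are genes known for high expression in the dark, in dormant or senescing tissue or when sugar is short. SEN1 had 25.1 and 25.9 CPM in wild type and 42.0 and 37.3 CPM in *ref4-3*, and DRM2 had 13.6 and 13.3 CPM against 20.6 and 20.6 CPM. At AT3G15450 the region covered 98.5% of the gene, with 23.4 and 20.1 CPM against 33.2 and 35.4 CPM. NAP, a NAC transcription factor of leaf senescence, had 31.4 and 28.8 CPM against 44.5 and 47.1 CPM. NYC1, which reduces chlorophyll *b* during chlorophyll breakdown, had 14.99 and 14.3 CPM against 23.92 and 23.95 CPM. VTE5, a phytol kinase (1.53), DHNAT1, a thioesterase of phylloquinone synthesis (1.595), and HEME2, an enzyme of tetrapyrrole synthesis (1.52), were the other members of pigment and plastid isoprenoid metabolism.

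The other groups were smaller. There were 7 DNA-binding and transcription factors, with the largest ratio (1.752) at AHL17 (AT5G49700), which had 33.6 and 30.01 CPM against 53.3 and 58.2 CPM, and with the GRAS protein SCL3 (1.62), the BEL1-like homeodomain protein BLH4 (1.55) and the bZIP factor TGA4 (1.51) beside those named above. Of the 6 defence and stress genes, BCB, a blue-copper-binding protein, had 9.26 and 7.602 CPM against 16.4 and 13.0 CPM, and the others were SBP1, ADR1-L2, AT1G19660, the peroxidase AT5G39580 and the kinase substrate MKS1 (1.52 to 1.57). Cell wall and cuticle genes were XTH30 (1.64), CYP86A8 (1.61) and MUM2 (1.56). Families or functions with 2 members included the DUF581 zinc finger proteins (AT1G74940 and AT5G20700, ratios near the threshold at 1.51 and 1.50) and transporters (AT1G12500 and UMAMIT41). Further pairs were ACT-domain proteins (ACR9 and AT2G31810) and zinc finger proteins of the C-x8-C-x5-C-x3-H type (U2AF35B and AT3G21810, 1.53 and 1.52). There were 4 non-coding RNA genes, and 21 genes had other or unknown products. Protein-coding genes made up 94.6% of the members and 91.0% of genes with an eligible region.

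Pathway lists put these members beside other genes of the same functions. Over all genes of the table, 646 of 22249 (2.9%) were called increased for H2A.Z and 398 (1.79%) decreased by edgeR's exact test. A call needed a fold change above 1.2 and a p-value, adjusted over all regions as a false discovery rate (FDR), below 0.05. All 74 members were among the increased ones, which follows from how they were chosen, and DESeq2 called 14 of them among 16 genes in all. Without the members, 2.58% of genes were called increased. The lists below are not independent of earlier results from these data.

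The list of sugar starvation and dark-inducible genes had 7 genes with an H2A.Z region, of which 3 were members (DIN4, SEN1 and DRM2). Of the other 4, 3 had a region called increased and none had one called decreased, although their median log2 change, taken at the region with the most counts of each gene, was −0.03. The called regions were those of ASN1, a dark-induced asparagine synthetase (12.5 and 12.3 CPM against 18.1 and 17.7 CPM), BGAL4, a beta-galactosidase (19.3 and 18.6 CPM against 28.8 and 24.6 CPM), and BCAT2, an aminotransferase of branched-chain amino acids (46.0 and 43.3 CPM against 57.7 and 57.3 CPM). BCAT2 had no other region, whereas ASN1 and BGAL4 had regions that were not called. The larger region of ASN1 had 69.1 and 72.9 CPM against 70.6 and 67.4 CPM (ratio 0.972), and the other regions of BGAL4 had ratios of 1.14 and 0.978. Another list, of branched-chain amino acid and lysine catabolism, was added after the members were known. It had 5 of 12 genes called increased, including the members DIN4 and MCCA, and 3 of 10 without the members. Of 7 chlorophyll breakdown genes, also listed afterwards, 3 were called increased, among them the member NYC1, and 2 of 6 without it. The share over all genes without the members was 2.58%.

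Of 23 core hypoxia genes, 7 were called increased and none decreased. PCO1 and ETR2 were the members, and LBD41, HUP26, HUP32, HUP54 and HUP36 were called with smaller ratios between 1.25 and 1.42. SUS1 (ratio 0.876, edgeR FDR 0.0364) and SUS4 (0.875, edgeR FDR 0.0303) were lower in *ref4-3* but under the fold threshold. Among 19 clock genes, 3 were called increased, the members GI and FKF1 and the non-member COR28, a gene under the rule's count minimum with 6.39 and 7.503 CPM against 9.36 and 11.2 CPM. Among 17 genes of light signalling, 4 were called increased, PLPB and the non-members PIF3, BBX21 and BBX24. The clock list without its members had 1 of 17 called (5.88%), against 23.8% of the hypoxia list and 18.8% of the light list treated likewise.

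No member belonged to the lists of jasmonate, phenylpropanoid, heat shock, cold or touch genes. Of 15 jasmonate genes, 7 were called decreased and none increased, the opposite direction to the members. In each called region *ref4-3* replicate 2 was the lowest library. At JAZ5 *ref4-3* replicate 1 lay near wild type (41.8 and 45.7 CPM against 40.2 and 21.3 CPM). At LOX3 both *ref4-3* libraries were well below wild type (80.2 and 81.5 CPM against 56.5 and 42.0 CPM in its first region). Of 20 phenylpropanoid genes and their repressors, 2 were called increased and 2 decreased. The heat shock list had 1 of 14 genes called increased, the cold list 2 of 13 and the touch list 1 of 10, with no decreases called.

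**Figure D2:**
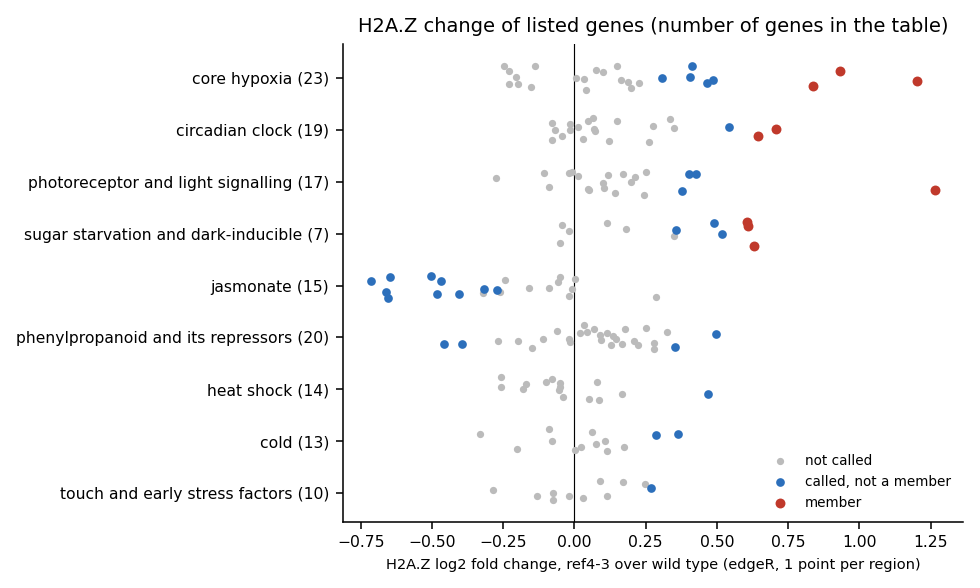
H2A.Z log2 fold change (*ref4-3* over wild type, edgeR) of every region of the genes on 9 pathway lists, 1 point per region, with the number of genes in the H2A.Z table in brackets. Red points are members, blue points are regions called at FDR below 0.05 and fold above 1.2 that are no members, and grey points are not called; 7 of the 15 jasmonate genes have called regions to the left of 0, and all members lie to the right of 0.5.

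Related genes did not all share the gain. ERS2 was called increased at 1 of its 2 regions, like its fellow ethylene receptor ETR2, with 14.9 and 16.1 CPM in wild type and 22.5 and 21.8 CPM in *ref4-3*. PRODH2, the second proline dehydrogenase, went the other way and was called decreased, with 36.4 and 39.0 CPM against 34.6 and 23.3 CPM in the region with the larger change, where *ref4-3* replicate 2 was far below the other libraries. Of the families of PCO1, GID1C, TPS6, bZIP1 and ACX2, the other genes with an H2A.Z region were not called. Differences between family members were not tested.

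Member regions were short and low in wild-type plants. Their median length was 600 bp, against 800 bp over regions with a mean count of at least 100, and 31.6% were 400 bp or shorter, against 16.1%. The median wild-type level per length was 22.6 CPM per kb, against 37.1 CPM per kb. A member region covered a median of 27.4% of its gene, against 53.1%, although the genes were of similar length (medians 2277 and 2122 bp). Most member regions (54 of 76) were mainly coding sequence, 9 were mainly intron, and 8 were mainly untranslated or non-coding exon. The regions sat a little into the gene, with a median of 187 bp between the gene start and the region, against 34 bp, and 53.9% began within 200 bp of the gene start, against 76.3%. Short regions with few counts have noisier ratios, and the part of this in the choice of members was not tested.

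The island lists showed the same low start. Islands are stretches that the authors' peak caller found enriched, on a grid of 200 bp. Of the 76 member regions, 53 touched no island in the merged wild-type libraries, against 3.75% of all regions with enough counts, and 11 lay wholly inside wild-type islands. All 76 lay wholly inside merged *ref4-3* islands. Taken library by library, 16 and 16 regions touched an island in wild type and 67 and 66 in *ref4-3*. The same libraries chose the members, so this is again a description. For most members, then, the region was defined by the *ref4-3* islands and its wild-type count was read where no wild-type island had been called.

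**Figure D3:**
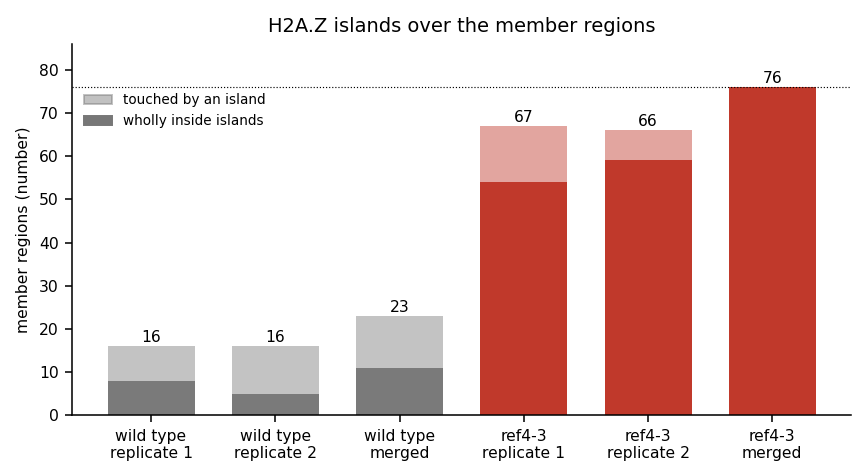
Number of the 76 member regions (vertical axis) touched by an H2A.Z island, for each replicate and for the merged libraries of each genotype, with the darker part of a bar giving the regions wholly inside islands and the dotted line all 76 regions. Wild-type islands touched 16, 16 and 23 of the regions, and *ref4-3* islands 67, 66 and 76.

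In genes with several regions the gain was not always shared along the gene. For 8 member genes a further region was counted that was no member. Its ratio was 1.45 at KAI2, where the member region had 1.51, and it was 1.3997 at NYC1, 1.35 at XTH30 and 1.29 at AT5G39580, where the member regions had 1.63, 1.64 and 1.52. These 4 were called increased by edgeR. It was near 1 at CYP86A8 (1.09), AT3G52100 (1.06) and AT3G25700 (0.969), and 1.18 at TGA4, and none of these was called.

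Neighbouring genes as a group showed little H2A.Z change. Of the 148 genes to the left and right of members, 87 had H2A.Z regions and 84 of these were no members. Their median H2A.Z log2 fold change was −0.0037, against −0.0009 for the neighbours of all genes, and 41 of 84 were above 0. Even so, 8 of the 84 (9.52%) were called increased, against 2.83% of the neighbours of all genes. The largest of these was AT1G01170 next to AT1G01180, at 0.52. STY17 next to SEN1 (0.38) and PIP1B, an aquaporin gene next to CYP86A8 (0.37), end 103 and 113 bp from the end of the member gene. The remaining ones were AT3G23160, AT5G49690, AT5G59970, AT1G69485 and AT1G70740, between 0.30 and 0.39. AT1G68040, which lies between the members TPS6 and FKF1, was called decreased (−0.32) and is counted once for each of them.

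A few members lay near each other. TPS6 and FKF1 are 8055 bp apart with AT1G68040 between them, AT4G35750 and SEN1 are 2818 bp apart with LTO1, which overlaps AT4G35750 and was not called, in the gap, and AT5G49440 and bZIP1 are adjacent at 2053 bp. AT5G42825 and U2AF35B overlap on opposite strands and share the same 600-bp region, so the same fragments were counted for both and the gain cannot be assigned to either. Counting ignored strand, and 7 member regions overlapped a further annotated gene. At DHNAT1 the whole 788-bp region lies inside the antisense transcript AT1G48315, which was called increased too. The member genes were spread over all chromosomes, with 18, 13, 13, 10 and 20 genes on chromosomes 1 to 5. A near-identical copy elsewhere was found for 1 region, that of EDA34, over 115 bp on chromosome 1.

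**Figure D4:**
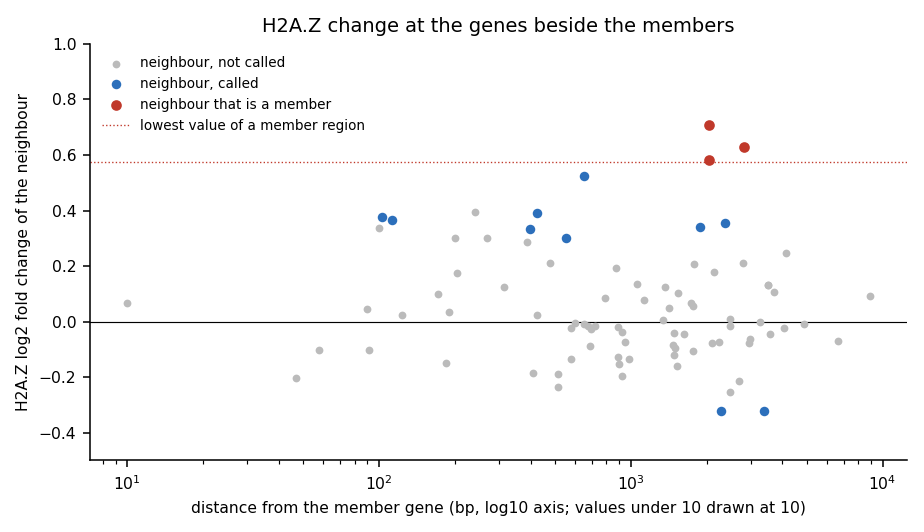
H2A.Z log2 fold change (vertical axis, edgeR) of the genes to the left and right of members against their distance from the member gene in bp (log10 axis). Grey points were not called, blue points were called and red points are themselves members. Of the 84 non-member neighbours, 41 lie above 0. None reaches the dotted line, which marks the lowest value of a member region (0.58), as largely follows from the rule.

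H3K27me3 was measured in libraries whose counts played no part in choosing the members, so it was tested. Whether these libraries shared chromatin preparations with the H2A.Z libraries is not stated, and no counts were corrected for input. Independence of the H3K27me3 results from the choice of members is therefore not shown. A difference between preparations that affected both marks was not tested. Most members had no H3K27me3 region. Of the 74 genes, 11 (14.9%) had an H3K27me3 region, against 34.5% of all genes with H2A.Z. The other 63 genes lay a median of 3017 bp from the nearest H3K27me3 island of either genotype. Of these genes 12 had an island within 1 kb without touching it, 1 touched an island by less than the 200 bp minimum, and 25 lay more than 5 kb away.

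Of the 11 genes with H3K27me3, 5 were called increased in *ref4-3* and none decreased. Over the H3K27me3 table, edgeR's exact test called 457 of 8286 genes (5.52%) increased and 638 (7.7%) decreased, under the thresholds used for H2A.Z. Among genes with both marks the increased share was 5.02%. The study reports that genes with increased H2A.Z overlapped genes with increased H3K27me3 more than predicted. A gain of both marks is therefore not particular to the members. The median log2 fold change of the 11 genes was 0.17, against 0.00073 over the table. With 11 genes the share is imprecise, and no p-value is given for it.

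The H3K27me3 gain was largest at EBP (chr3:5706201-5706800), with 12.2 and 13.7 CPM in wild type and 22.2 and 24.1 CPM in *ref4-3* (log2 fold change 0.86 ± 0.15 SE, edgeR FDR 2.89e-07). This level per length is very low for the table, at the 0.231 percentile in wild type. No wild-type H3K27me3 island touched the region, in the merged or in the single libraries, and the *ref4-3* islands covered it whole. EBP thus entered the table through *ref4-3* alone, and a region that enters in this way is likely to be higher there. Over the table, 159 genes had such a region and 50.9% of them were called increased at it. Restricted to regions touched by a merged wild-type island, a choice made after this was seen, 4 of 10 member genes were called increased, against 381 of 8150 genes (4.67%).

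XTH30, an enzyme that cuts and rejoins xyloglucan in the cell wall, had the second largest gain. Its H3K27me3 region spans the gene (chr1:11575320-11578000) and had 86.03 and 80.3 CPM in wild type and 126.9 and 123.3 CPM in *ref4-3* (0.60 ± 0.064 SE, edgeR FDR 3.98e-19). The difference was many times the distance between replicates. Wild-type islands covered 1600 of its 2681 bp, and *ref4-3* islands covered all of it.

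PCO1 had H3K27me3 in the body of the gene (chr5:4899601-4900400), over the whole of its second H2A.Z region and not over the first. It had 25.7 and 27.4 CPM in wild type and 35.3 and 36.5 CPM in *ref4-3* (0.45 ± 0.11 SE, edgeR FDR 0.000997). BLH4 was called at 2 regions. The one that overlaps its H2A.Z region (chr2:10111801-10112800) had 29.3 and 29.3 CPM against 37.0 and 35.5 CPM (0.32 ± 0.11 SE, edgeR FDR 0.0221), and a region further into the gene (chr2:10110601-10111000) had 16.4 and 14.1 CPM against 22.0 and 18.1 CPM (0.40 ± 0.15 SE, edgeR FDR 0.0386). AT2G22145, which encodes a small protein of the ECA1 gametogenesis-related family, had both marks over its whole length. Its H3K27me3 was 27.2 and 27.8 CPM in wild type and 38.9 and 33.4 CPM in *ref4-3* (0.40 ± 0.12 SE, edgeR FDR 0.00462). In each of these regions both *ref4-3* libraries were above both wild-type libraries.

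The other 6 genes were not called. CYP86A8, a fatty acid hydroxylase of the cuticle, had 172.1 and 159.7 CPM against 176.0 and 192.6 CPM (0.17, edgeR FDR 0.0107), and AT5G39580 had 180.1 and 185.8 CPM against 212.5 and 192.7 CPM (0.15, edgeR FDR 0.0112). Both were under the fold threshold. BCB had 78.6 and 69.5 CPM against 88.0 and 77.7 CPM (0.17, edgeR FDR 0.0913), and its genotypes overlapped. The values were 0.08 for the non-coding RNA gene AT1G04923, −0.03 for AHL17 and −0.09 for AT1G03400, which encodes an oxygenase-family protein. Among the H3K27me3 regions of the members, most of those called had a low wild-type level per length. The called regions lay at the 0.231, 4.26, 6.74, 13.3, 48.2 and 2.70 percentiles of all H3K27me3 regions. Their order here is EBP, XTH30, PCO1, the smaller BLH4 region, AT2G22145 and the larger BLH4 region. Of the regions not called, that of AT1G03400 lay at the 6.08 percentile and the others between the 43.0 and 82.6 percentiles. The shares called over all genes were not matched for this level. The median of all 12 regions was 51.3 CPM per kb, against 73.7 CPM per kb over the table.

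The calls depended on the wild-type libraries and on the test. XTH30 and EBP were called under each alternative test, scaling, count filter, threshold and left-out library, although EBP has no value when a wild-type island is required. Without wild-type replicate 1 they were the only members called, and without wild-type replicate 2 PCO1 was called as well. DESeq2 also called XTH30 and EBP alone, among 187 increased genes in place of 457. With 2 libraries a side, permuting labels exactly has a smallest two-sided p of 0.333. These calls therefore rest on the spread that edgeR estimates over all regions, which here is the spread between independent biological replicates, as the study describes them.

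**Figure D5:**
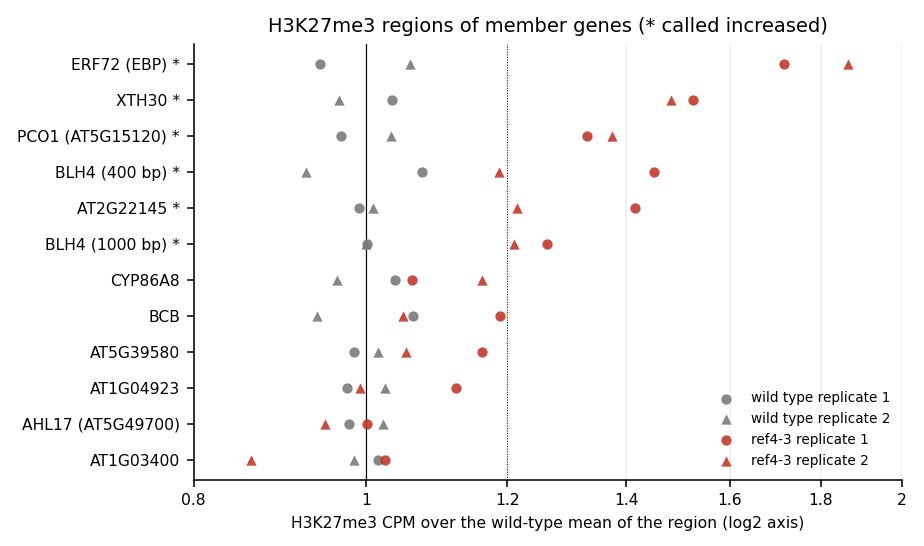
H3K27me3 at the 12 regions of the 11 member genes that carry it, as CPM of each library divided by the wild-type mean of the region (log2 axis), with grey for wild type, red for *ref4-3*, circles for replicate 1 and triangles for replicate 2. Stars mark regions called increased by edgeR, the dotted line is the fold threshold of 1.2, and the *ref4-3* points of EBP and XTH30 lie farthest to the right.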

How the data were processed

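H2A.Z and H3K27me3 were analysed in 8 libraries, 2 per genotype and mark, grouped by the sample titles. The authors trimmed reads with fastp 0.23.2, mapped them to TAIR10 with Bowtie2, kept proper pairs, called islands with epic2, and counted fragments per gene region in the joined islands of both genotypes. The deposited counts are raw, without input subtraction, and per the file headers they were made after removing duplicates. The deposited island score was not used, nor was the −log10 column, whose meaning is not stated; island positions were. Region lengths were taken as deposited.

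CPM used column totals. All regions of a mark were fitted together in edgeR 4.0.16 (R 4.3.3) with TMM factors and the exact test, as the study's methods give it, and a region was called with a fold change above 1.2 when its Benjamini-Hochberg FDR was below 0.05. Genes took the calls of their regions. For medians the region with the most counts stood for a gene. edgeR's quasi-likelihood test, DESeq2 1.42.0, other scalings, filters and thresholds, and leaving out each library were the alternatives. The scripts were tested on simulated counts. Copies were searched with blastn 2.17.0 at 95% identity over at least 100 bp. Gene names, gene parts and upstream bases came from RefSeq's TAIR10.1, in which every region lay inside its gene.

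The members, lists and groups were chosen with earlier results of these data known. Named genes are the 10 regions with the largest ratios, members with H3K27me3, on a pathway list, near another member or at the threshold, families with at least 2 members, and called genes of the lists. Members named beyond this rule, to account for their groups, were picked by annotation.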

Additional observations from a re-analysis of the deposited data

How the results depend on the processing

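The rule gave 68 regions with TMM-scaled CPM, and 76 without the demand that the genotypes not overlap. A mean count of at least 200 left 19 regions and a stricter ratio, between 1.6 and 2, left 11, whereas a ratio of 1.4 gave 176 and a count of at least 50 gave 87. Leaving out 1 library gave 87 to 111 regions, of which 54 to 62 were members. DESeq2 called 14 members increased for H2A.Z (16 genes over the table). With 1 library left out, the H2A.Z log2 changes of the members ran from 0.37 to 1.37. For H3K27me3, 2 members were called increased with DESeq2 (187 genes over the table) and 2 at a fold change above 1.5 (81 genes). Under the other alternatives that kept all libraries the number was 4 to 7. It was 4 at an FDR below 0.01 (343 genes over the table) and 7 without a fold threshold (1011 genes). No member was called decreased for H3K27me3 under any alternative that kept all libraries. The main fit called 638 of 8286 genes (7.7%) decreased, so with 11 member genes this absence carries little weight. Small negative H3K27me3 log2 changes turned positive when 1 library was left out: AT1G03400 ranged from −0.19 to 0.043 and AHL17 from −0.059 to 0.0086, where the values above 0 came without *ref4-3* replicate 2 (both genes) and without wild-type replicate 2 (AHL17, 0.0083). The median H3K27me3 change of the member genes stayed between 0.16 and 0.26.

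Replicate numbers were not found to pair the samples (correlation of same-numbered deviations −0.0251 for H2A.Z and 0.0715 for H3K27me3). The quasi-likelihood fit with a replicate block called 5 members increased for H3K27me3, 0 decreased and 74 increased for H2A.Z, the same numbers as without the block. Over the table, these calls covered 488, 672 and 607 genes with the block and 453, 647 and 677 without it.

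The median member region had a mean count of 157 per library, which limits the precision of its ratio. Regions outside the islands of both genotypes have no count, so gains at genes with little H2A.Z in either genotype are not measurable here.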
